A study of Mus musculus with 9 samples.

Results

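The Clec genes encode C-type lectin receptors and their relatives, and they were taken from a deposited table of 1710 genes as every gene whose symbol is Clec followed by a number. The rule found 11 of the 1710 genes: Clec4e, Clec4d, Clec5a, Clec7a, Clec9a, Clec12a, Clec4a1, Clec4a3, Clec2d, Clec2i and Clec2h. Clec4a1 and Clec4a3 stand in the table as CLEC4A and Clec4a and were matched by Ensembl identifier to the GENCODE M21 annotation. That annotation holds 30 protein-coding Clec genes, of which 19, Clec4n among them, were not analysed here. RNA was sequenced from tissue of wild-type (WT) mice labelled "brain ctx", taken 10 days after a stereotaxic injection, at the centre of the injected area. The 9 libraries fall into 3 groups of 3, labelled PBS (a buffered salt solution), LowDose and HighDose, and by the series title the agent was adeno-associated virus (AAV), a vector for gene delivery. The amounts behind the doses, and the age and sex of the mice, were not used here. The labels do not tie the libraries to separate animals, so that n, SD, SE and p describe the spread between libraries, which may be technical.

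C-type lectin receptors are membrane proteins of myeloid cells with a lectin-like domain that binds sugars, lipids, crystals or proteins of microbes and damaged cells. The activating receptors signal through an activation motif, either in their own tail or in the adaptors Fcer1g and Tyrobp, to the kinase Syk and from there to NF-kB, while inhibitory receptors recruit phosphatases such as Ptpn6. The Clec2 genes encode a separate group of surface ligands, which are bound by lectin-like receptors of natural killer (NK) cells and other lymphocytes. In the healthy brain the myeloid cells are mainly microglia and the macrophages of its borders, and monocytes and dendritic cells can enter it in inflammation.

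All 11 genes lie on mouse chromosome 6 (build mm10, GENCODE M21). Clec4a1 (122921848 to 122934619) and Clec4a3 (122952515 to 122969875) are 17.9 kb apart, and Clec4d (123262111 to 123275265) and Clec4e (123281789 to 123289870, minus strand) 6.52 kb apart. Clec2h (128662385 to 128677374), Clec2i (128887588 to 128898167) and Clec2d (129180615 to 129186534) lie in the region of the NK cell receptor genes. They are followed by Clec12a (129342691 to 129365303), Clec9a (129408862 to 129424763) and Clec7a (129461591 to 129472779, minus strand). Clec5a (40574894 to 40585821, minus strand) lies alone, far from the others.

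The 3 stretches printed here, from RefSeq promoters on GRCm38.p6, run from 250 to 31 bases before the annotated start site, 5′ to 3′ on the strand of the gene. They were chosen to show the factor motifs found before a receptor with the lowest change (Clec5a), before the one with the highest (Clec4e), and before the member with the highest level per length (Clec2d). Clec5a is chr6:40585836-40586055 (minus strand), with 2 matches to the core of PU.1, a factor of myeloid cells, in capitals. Clec4e is chr6:123289902-123290121 (minus strand), with a C/EBP match in capitals. Clec2d is chr6:129180365-129180584 (plus strand), with a match to the core of the interferon response element in capitals.
Clec5a: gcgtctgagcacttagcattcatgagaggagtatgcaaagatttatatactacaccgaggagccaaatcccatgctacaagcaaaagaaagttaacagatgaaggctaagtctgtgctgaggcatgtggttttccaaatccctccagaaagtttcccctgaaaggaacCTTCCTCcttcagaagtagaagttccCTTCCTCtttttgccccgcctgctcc
Clec4e: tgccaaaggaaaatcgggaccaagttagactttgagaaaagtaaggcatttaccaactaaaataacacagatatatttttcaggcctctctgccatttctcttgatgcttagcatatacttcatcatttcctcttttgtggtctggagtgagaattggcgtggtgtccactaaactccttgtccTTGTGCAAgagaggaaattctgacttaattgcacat
Clec2d: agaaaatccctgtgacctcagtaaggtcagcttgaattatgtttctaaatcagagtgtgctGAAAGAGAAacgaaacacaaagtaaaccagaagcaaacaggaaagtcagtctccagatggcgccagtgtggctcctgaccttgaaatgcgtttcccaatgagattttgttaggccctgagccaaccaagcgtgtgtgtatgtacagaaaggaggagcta

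A total of 6 motifs were searched on both strands in the 300 bases from 250 before to 50 after the start site, in 14 promoters that matched the 11 genes and in 32851 mouse promoters of the same length. A gene counted if any of its promoters matched, while the share of all promoters counts each promoter once. These are unlike measures. The PU.1 core (GAGGAAG) occurred in 5 of 11 genes (Clec5a, Clec12a, Clec4a1, Clec4d and Clec2h) and in 13.6% of all promoters. In Clec5a its matches lie at 82 to 76 and at 56 to 50 bases before the start. The interferon response core (GAAANNGAA) occurred in 4 genes (Clec2d, Clec2h, Clec4d and Clec9a) and in 8.56% of all promoters. C/EBP (TTGCNNAA) occurred in Clec12a, Clec2i and Clec4e, against 10.8% of all promoters, and AP-1 (TGANTCA) in Clec12a and Clec2h, against 7.81%. The gamma-activated site (TTCNNNGAA; 8.30% of all promoters) and the NF-kB motif (GGGANTTCC; 1.68%) matched in 0 of the 11 genes, which says only that these letters are not in these windows. A match is a description of the sequence, and motif matches were present in genes with large and with small changes.

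Library totals, recovered from the counts, lengths and FPKM values, were 18.3 to 23.7 M (1e6 reads or read pairs), so that 3 counts stand for 0.126 to 0.164 CPM (counts divided by the library total in M). Each of the 1710 listed genes differed at least 2-fold in mean FPKM (counts per kilobase of transcript and M) between at least 1 pair of groups, which the tests of HighDose therefore repeat in part. HighDose was higher than PBS in 86.3% of the 1583 genes tested, and the median log2 change over them was 1.90. Against the label "brain ctx", Drd2 and Adora2a, genes of striatal neurons, reached 29.8 to 43.7 and 42.2 to 64.6 CPM in PBS, 6.47 to 22.0 and 6.04 to 28.1 in LowDose, and 4.46 to 8.31 and 7.06 to 11.7 in HighDose. The cortical neuron gene Slc17a7 was not analysed here, and the part of the striatal difference in the results below was not tested.

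On library totals, every one of the 11 Clec genes was higher in HighDose than in PBS (Clec5a reverses when the listed genes set the scale), by 1.48 to 5.62 on the log2 scale with a median of 3.12, each with an adjusted p under 0.05 (edgeR quasi-likelihood test, Benjamini-Hochberg over 1583 genes). In 10 of 11, every HighDose library lay above every PBS library, as in 85.8% of all genes tested; Clec2h was the exception. These counts are near the background and show nothing particular to the Clec genes. Clec4e, Clec4d, Clec4a1, Clec9a, Clec2i and Clec2h passed the low-count filter (0.461 CPM in 3 libraries) only with the help of HighDose. Their adjusted p is therefore no support for a difference. No Clec gene passed the test in LowDose against PBS. The size of the HighDose change depends on the scaling: when the listed genes themselves set it (TMM), the median over all genes became 0.19, 6 of 11 Clec genes (Clec4e, Clec7a, Clec9a, Clec4a1, Clec4a3 and Clec2i) passed, beside 37.9% of all genes called higher, and Clec5a turned to -0.24. In bulk tissue, more cells of a type and more RNA per cell cannot be told apart.

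**Figure D1:**
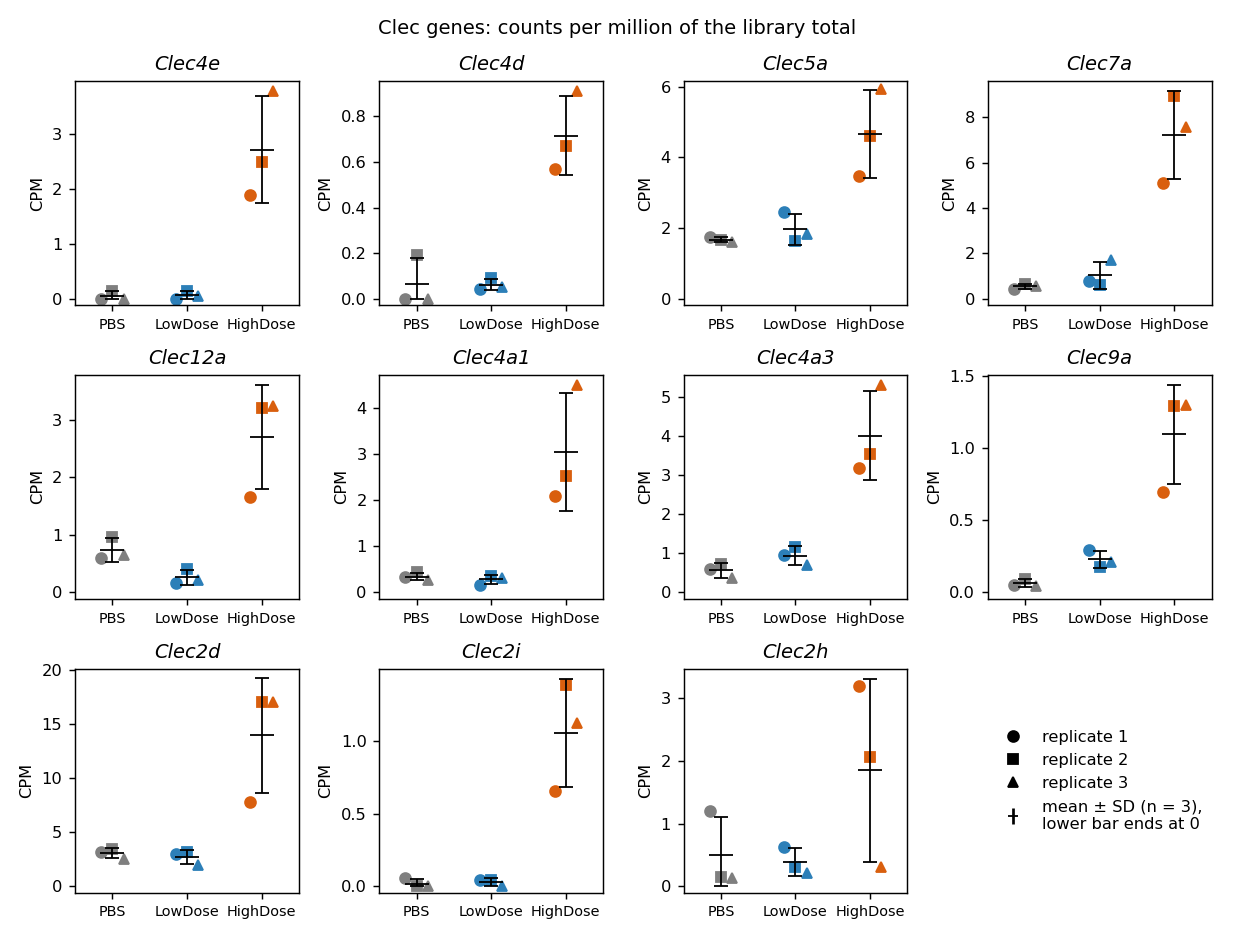
CPM of the 11 Clec genes (vertical axes, each from about 0) in the 3 libraries of PBS, LowDose and HighDose, with mean and SD (n = 3) and 1 marker shape per replicate number. HighDose lies above the other groups in 10 panels, with replicate 1 lowest in those, and in Clec2h HighDose replicate 3 lies among the PBS and LowDose libraries.

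Among the activating receptors, Clec4e and Clec4d rose from near 0. Clec4e encodes Mincle, which binds mycobacterial glycolipid and a protein released by dying cells, and Clec4d encodes its partner MCL; both signal through Fcer1g. Clec4e was at 0, 0.145 and 0 CPM in PBS replicates 1 to 3, at 0, 0.135 and 0.0534 in LowDose, and at 1.88, 2.49 and 3.77 in HighDose. All PBS and LowDose libraries held 3 counts or fewer, and the HighDose libraries stood clear of them. The 3 HighDose libraries held 182 counts against 3 in PBS, a ratio of 55.1 (95% counting interval 18.6 to 270), and the fitted log2 change was 5.62 ± 0.72 (SE; edgeR adjusted p = 3.16e-09). Without PBS replicate 2, which held all 3 PBS counts, the fitted change was 8.87, which is no bound since PBS is then at 0.

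Clec4d was at 0, 0.194 and 0 CPM in PBS, at 0.0421, 0.0899 and 0.0534 in LowDose, and at 0.569, 0.670 and 0.910 in HighDose. The PBS signal came from replicate 2 alone, and HighDose did not overlap with either group. The sums of 48 and 4 counts gave a ratio of 10.9 (3.99 to 41.6) and a log2 change of 3.34 ± 0.80 (edgeR adjusted p = 0.000191). Without PBS replicate 2 the PBS group is at 0, and the fitted change, which is then no bound, was 6.95. With the listed genes setting the scale, the change was 1.69 and no longer passed (edgeR adjusted p = 0.0747). The intervals cover counting error only.

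Clec7a encodes Dectin-1, the receptor for fungal beta-glucan, which signals to Syk by a motif in its own tail. It was at 0.436, 0.630 and 0.553 CPM in PBS, at 0.801, 0.584 and 1.71 in LowDose, and at 5.12, 8.95 and 7.58 in HighDose. HighDose lay above both other groups, and LowDose replicate 3 stood above the other LowDose and the PBS libraries. The log2 change was 3.72 ± 0.40 in HighDose against PBS (edgeR adjusted p = 3.58e-11) and 2.82 ± 0.37 against LowDose.

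Clec5a encodes MDL-1, a receptor that signals through Tyrobp and is known to bind dengue virus on myeloid cells. Its PBS libraries lay at 1.74, 1.65 and 1.61 CPM, its LowDose libraries at 2.44, 1.62 and 1.82, and its HighDose libraries at 3.46, 4.59 and 5.94. LowDose overlapped with PBS, and HighDose lay above both. The log2 change in HighDose against PBS, 1.48 ± 0.34 (edgeR adjusted p = 0.000104), was the smallest of the 11 and below the median of all genes, 1.90. It was -0.24 to -0.21 under the 3 scalings taken from the listed genes, with no call. Against LowDose it was 1.24 ± 0.33 and turned to -0.53 under TMM.

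Clec9a encodes DNGR-1, by which cross-presenting dendritic cells bind actin filaments of dead cells. It was at 0.0545, 0.0968 and 0.0461 CPM in PBS, at 0.295, 0.180 and 0.214 in LowDose, and at 0.700, 1.29 and 1.30 in HighDose. The 3 groups did not overlap and followed the order of their labels. HighDose against PBS gave 73 against 4 counts, a ratio of 16.6 (6.20 to 62.4) and a log2 change of 3.94 ± 0.70 (edgeR adjusted p = 2.73e-06). LowDose against PBS gave 15 against 4 counts and 1.72 ± 0.84, which did not pass (edgeR adjusted p = 0.406).

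Clec12a encodes MICL, an inhibitory receptor that binds uric acid crystals and recruits phosphatases. It was at 0.600, 0.968 and 0.646 CPM in PBS, at 0.169, 0.405 and 0.214 in LowDose, and at 1.66, 3.20 and 3.25 in HighDose. Every LowDose library lay below every PBS library, and every HighDose library above. HighDose rose over PBS by 1.86 ± 0.45 (edgeR adjusted p = 0.000191) and over LowDose by 3.33 ± 0.50 on the log2 scale. LowDose against PBS was -1.47 ± 0.54 and did not pass (edgeR adjusted p = 0.166), with 17 counts in LowDose and 45 in PBS. Under TMM the change over PBS was 0.14 (edgeR adjusted p = 0.728), while Clec12a was still higher than in LowDose.

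Clec4a1 and Clec4a3 belong to the dendritic cell immunoreceptor group. Clec4a1 was at 0.327, 0.436 and 0.277 CPM in PBS, at 0.169, 0.360 and 0.321 in LowDose, and at 2.10, 2.54 and 4.51 in HighDose. LowDose and PBS overlapped, and HighDose replicate 3 was the highest by a wide margin. The log2 change was 3.12 ± 0.49 (edgeR adjusted p = 2.28e-07). Clec4a3 was at 0.600, 0.726 and 0.369 CPM in PBS, at 0.969, 1.17 and 0.695 in LowDose, and at 3.19, 3.54 and 5.33 in HighDose. LowDose overlapped with PBS through replicate 3, and HighDose stood above both. Its change was 2.83 ± 0.42 (edgeR adjusted p = 6.90e-08). Genes of this group resemble each other in sequence, and how reads shared between them were split in the authors' counting was not given.

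The ligand group was led by Clec2d, which encodes Clr-b, a ligand of the inhibitory receptor encoded by Klrb1b that marks healthy cells to NK cells. It was at 3.22, 3.44 and 2.54 CPM in PBS, at 2.95, 3.15 and 1.98 in LowDose, and at 7.83, 17.0 and 17.0 in HighDose. HighDose replicate 1 had less than the other HighDose libraries and still lay above all of PBS and LowDose. The log2 change was 2.19 ± 0.30 (edgeR adjusted p = 1.04e-08). It was 0.45 and not called under TMM (edgeR adjusted p = 0.108). The receptor gene Klrb1b was at 0, 0.0484 and 0.277 CPM in PBS, at 0, 0 and 0.0534 in LowDose, and at 0.744, 1.96 and 1.43 in HighDose, with a log2 change of 3.53 ± 0.70.

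Clec2i encodes Clr-g, another ligand of Nkrp1 receptors. It was at 0.0545, 0 and 0 CPM in PBS, at 0.0421, 0.0450 and 0 in LowDose, and at 0.656, 1.39 and 1.13 in HighDose. The libraries outside HighDose held at most 1 count each. The sums of 70 and 1 counts gave a ratio of 63.6 with a wide counting interval of 11.0 to 2546, and the fitted log2 change was 5.56 ± 0.91 (edgeR adjusted p = 5.59e-07). Without PBS replicate 1, which held the 1 PBS count, the fitted change was 7.53 and likewise no bound.

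Clec2h encodes Clr-f, a ligand known from the epithelium of gut and kidney. It was at 1.20, 0.145 and 0.138 CPM in PBS, at 0.632, 0.315 and 0.214 in LowDose, and at 3.19, 2.06 and 0.303 in HighDose. PBS replicate 1 lay above HighDose replicate 3, and the highest library of each group was replicate 1. The log2 change over PBS was 1.94 ± 0.63 (edgeR adjusted p = 0.00388). Without PBS replicate 1 it was 3.65 (edgeR adjusted p = 1.53e-06). Without HighDose replicate 1 it was 1.28 and did not pass (edgeR adjusted p = 0.125), and over LowDose it went from 2.21 ± 0.63 to 1.55 (edgeR adjusted p = 0.0705).

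A list of 30 genes of small-intestine enterocytes, written after the values of Clec2h were seen, had 15 members in the table. Their summed level was 17.7, 10.3 and 9.13 CPM in PBS replicates 1 to 3, 20.5, 9.26 and 14.4 in LowDose, and 56.5, 59.3 and 20.1 in HighDose. PBS replicate 1 was the highest PBS library in 15 of 15 genes, and HighDose replicate 3 the lowest HighDose library in 15 of 15. The intestinal alkaline phosphatase gene Alpi, for example, was at 0.600, 0.145 and 0.184 CPM in PBS, at 0.337, 0.0450 and 0.160 in LowDose, and at 1.79, 1.91 and 0.0433 in HighDose. None of the 15 was at 0 in any library, and their part in the Clec2h result was not tested. Whether the Clec2h and enterocyte counts come from the brain tissue itself was not tested either. In the other 10 Clec genes, HighDose replicate 3 was not the lowest HighDose library.

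**Figure D2:**
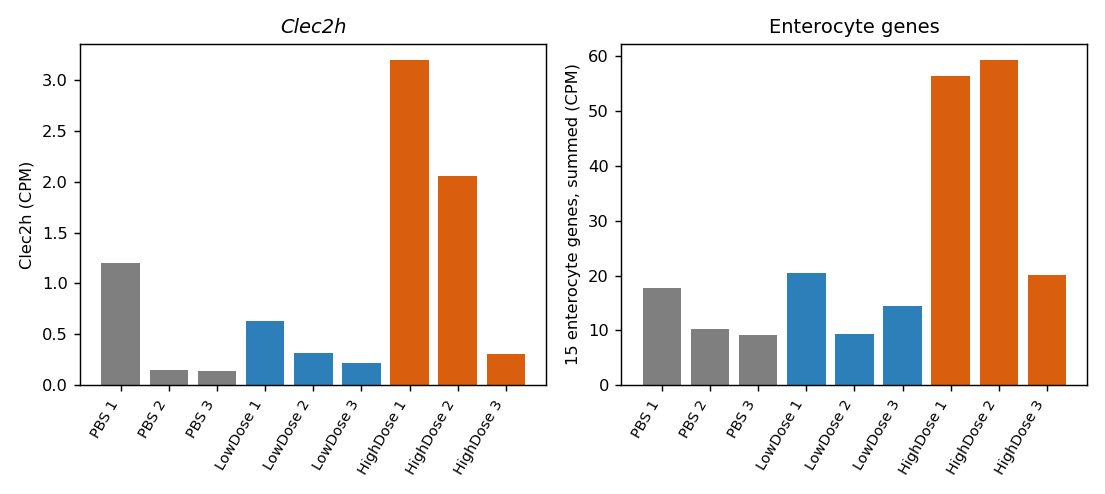
Clec2h (left) and 15 enterocyte genes summed (right), in CPM, 1 bar per library, with bars from 0. PBS replicate 1 is the highest PBS bar and HighDose replicate 3 the lowest HighDose bar in both panels, while the highest HighDose bar is replicate 1 for Clec2h and replicate 2 for the sum.

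Levels can be compared between genes only per length, as FPKM. In HighDose the order by mean FPKM was Clec2d (11.5 ± 4.38, SD, n = 3), Clec7a (4.85 ± 1.16), Clec4a3, Clec4a1, Clec5a, Clec12a, Clec2h, Clec4e, Clec2i, Clec4d and Clec9a (0.510). Clec2d, at 6.46 to 14.04 FPKM, did not overlap with Clec7a, at 3.78 to 6.09, while in the other 9 neighbouring pairs of this order the libraries overlapped. In PBS, Clec2d was also first (2.52 ± 0.386) and Clec5a second (0.520 ± 0.114). The 11 genes summed to 4.01 to 5.12 FPKM in PBS, 4.67 to 5.29 in LowDose and 20.5 to 33.9 in HighDose. Clec2d made up 52.1% to 55.3% of the sum in PBS, 34.9% to 49.3% in LowDose and 31.5% to 43.9% in HighDose, and Clec7a 5.47% to 11.97%, 6.05% to 26.8% and 13.8% to 19.0%. The upper LowDose value of Clec7a is replicate 3. There, at 32 counts, count and FPKM imply a length of 1368 bases, against 2288 in LowDose replicate 1, at 19 counts. The FPKM shares therefore also carry differences in length between libraries, which CPM does not.

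**Figure D3:**
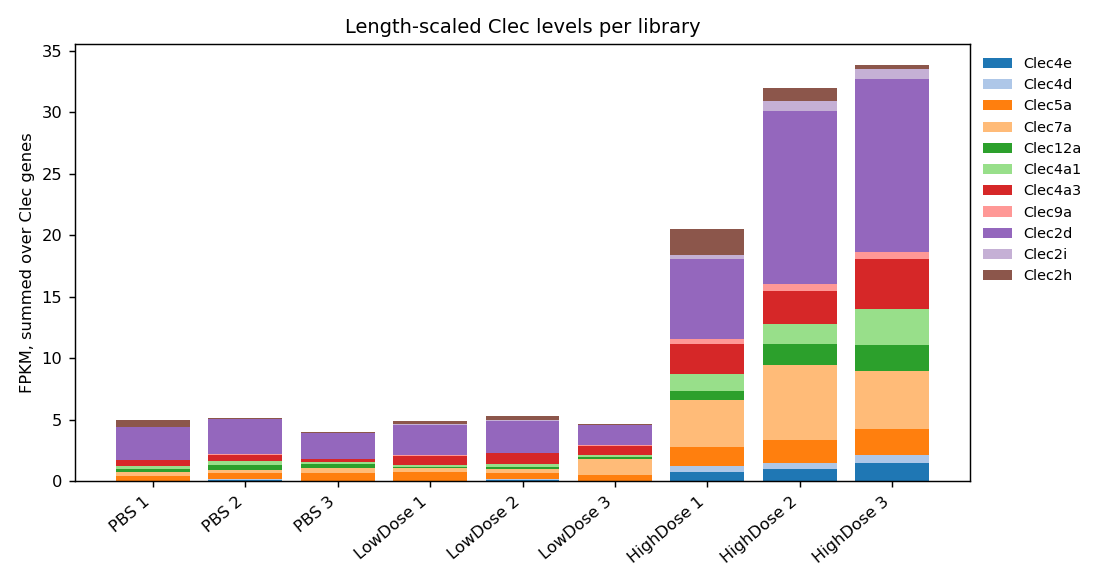
FPKM summed over the 11 Clec genes (vertical axis, from 0), stacked by gene, 1 bar per library. The PBS and LowDose bars reach 4.01 to 5.29 and the HighDose bars 20.5, 32.0 and 33.9, with Clec2d the largest block in each bar.

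Within HighDose, replicate 1 was the lowest library in 10 of the 11 genes and replicate 3 in Clec2h, and the highest was replicate 3 in 7, replicate 2 in 3 and replicate 1 in 1 (Clec2h). The share of the library counts held by all listed genes was likewise lowest in HighDose replicate 1, at 3.90%, 5.21% and 6.04% for replicates 1 to 3. Clec4e, Clec4d, Clec4a1, Clec9a and Clec2i passed the low-count filter only through HighDose, with 0 libraries outside it at the needed 0.461 CPM, so they had to differ. Clec2h, with 2 such libraries where 3 were needed, also depended on HighDose to pass. The adjusted p of these genes, and counts and medians over the 11, do not stand as support.

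In LowDose against PBS, 0 of 11 Clec genes passed in edgeR, and 0 in the Wald test of DESeq2. Of all genes, 0.442% were called higher and 2.15% lower. At an unadjusted p under 0.05 there were 3 genes, described above (Clec12a, Clec9a and Clec7a), beside 11.7% of all genes in either direction. The Clec7a value, 0.90 ± 0.44 (edgeR adjusted p = 0.406), was 0.35 without LowDose replicate 3. That library was also the highest LowDose library for 6 of 8 activated microglia genes, Lgals3 and Lyz2 being the others, with Cst7 at 0.379, 0.674 and 1.92 CPM and Itgax at 0.548, 1.03 and 2.08. Cst7 passed the test in LowDose against PBS (1.76 ± 0.49, edgeR adjusted p = 0.0371). The median over the 11 Clec genes was 0.24, beside -0.03 over all genes, and it turned to -0.28 without PBS replicate 3 and to -0.14 without LowDose replicate 2. The depth limits this comparison: the 95% interval of the log2 change ran from -1.97 to 2.56 for Clec4e, at 3 and 4 counts in all, and from -0.78 to 0.42 for Clec2d, the narrowest of the 11.

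HighDose against LowDose gave 11 of 11 higher on library totals, with 88.1% of all genes called higher (under TMM 6 of 11 were called, beside 35.7% of all genes, Clec5a reversed, and Clec4d, Clec4a3, Clec9a and Clec2h lost their calls), and 10 of 11 without overlap, with 86.5% of all genes. The median was 2.82 beside 1.88 over all genes. This comparison shares its HighDose libraries with the one against PBS, and its values stand beside those: 5.33 ± 0.69 for Clec4e, 3.42 ± 0.80 for Clec4d, 3.42 ± 0.50 for Clec4a1, 2.08 ± 0.39 for Clec4a3, 2.22 ± 0.57 for Clec9a, 2.37 ± 0.30 for Clec2d and 4.86 ± 0.82 for Clec2i.

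**Figure D4:**
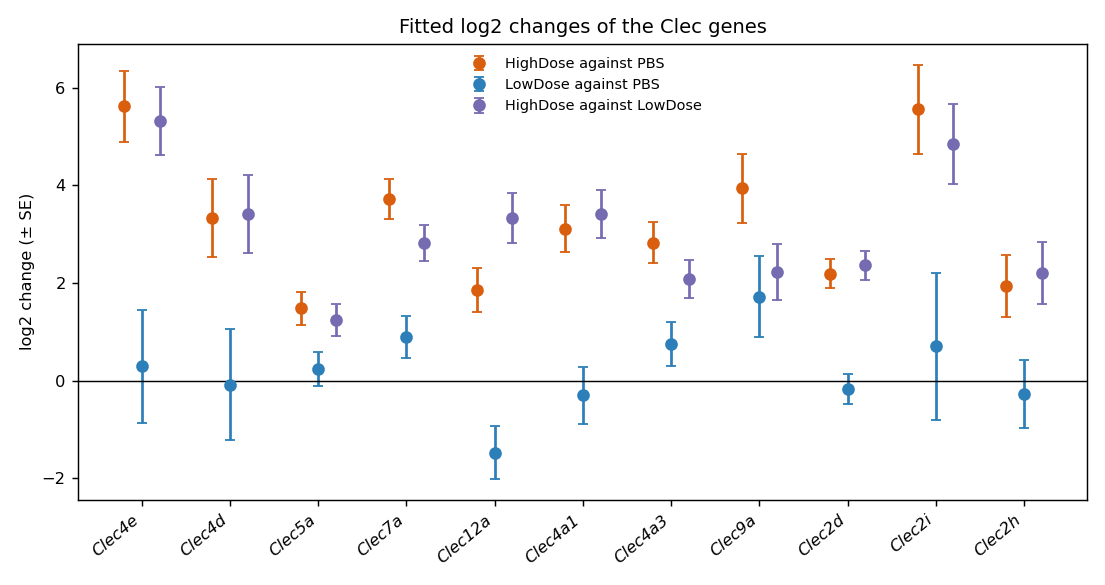
Fitted log2 changes (± SE) of the 11 Clec genes in the 3 comparisons, 1 colour each. The HighDose changes lie between 1.24 and 5.62 on library totals (Clec5a turns to below 0 when the listed genes set the scale), and the LowDose changes between -1.47 and 1.72, none of which passed.

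Of 33 genes of C-type lectin receptor signalling, 18 were tested. On library totals all 18 were higher in HighDose than in PBS, beside 86.3% of all genes. Their median was 1.72, beside 1.90 over all genes. Under TMM 7 were higher and 6 lower, beside 600 and 464 of the 1583 genes, with a median of 0.01. The adaptor Fcer1g went from 5.35 to 6.68 CPM in PBS and 6.15 to 7.69 in LowDose to 26.5 to 40.7 in HighDose (2.57 ± 0.24), and the adaptor Tyrobp from 10.1 to 12.5 and 11.0 to 12.2 to 22.5 to 26.6 (1.15 ± 0.22; -0.54 under TMM). Syk rose by 1.26 ± 0.26 (-0.45 under TMM), Malt1, the protease below it, by 0.99 ± 0.28 (-0.73 under TMM), and Plcg2, a phospholipase, by 1.80 ± 0.25 (0.12 and not called under TMM). Larger changes were seen in the Src family kinase Fgr (6.32 ± 0.52) and in the phosphatase Ptpn6 (2.75 ± 0.25). Fgr was at 0.0545, 0.0968 and 0.0922 CPM in PBS and at 5.29, 6.65 and 9.10 in HighDose, so the size of its change hangs on PBS values near 0. Fgr also lay under the filter's 0.461 CPM in every PBS and LowDose library, so it had to differ. None of the 18 passed in LowDose. Hcst, Card9 and Bcl10 were not analysed here.

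Of 25 effector genes of these receptors, 19 were tested and 19 were higher in HighDose, beside 86.3% of all genes. Their median was 3.76, beside 1.90 over all genes. Under TMM 15 were higher, beside 37.9% of all genes, and Egr2 and Ptgs2 lay below 0. The cytokine genes Il1b and Tnf rose by 3.30 ± 0.47 and 4.30 ± 0.66, and the transcription factor gene Irf1 by 4.60 ± 0.25. In LowDose, 1 of 19 passed, Ptgs2, the inducible cyclooxygenase (0.80 ± 0.23, edgeR adjusted p = 0.0480), beside 0.442% of all genes called higher. Of 52 other C-type lectin-like genes, 18 were tested. On library totals 16 were higher and 1 was lower, beside 86.3% of all genes higher. Under TMM 13 were higher and 2 lower, beside 600 and 464 of the 1583 genes. The median on library totals was 4.66, or 4.54 with Klre1, at 0 in PBS, set to its bound over 3 counts. Reg3b, 1 of the 16, is also among the 15 enterocyte genes, and its HighDose libraries overlapped with PBS. Cd69, an early activation marker of lymphocytes, rose by 8.61 ± 0.62. It was at 0.0545, 0 and 0 CPM in PBS and at 6.69, 8.42 and 11.2 in HighDose. The size of its change therefore hangs on PBS values near 0. The gene called lower was Bcan, for the matrix protein brevican (-1.01 ± 0.22), and Ly75 did not pass (0.56 ± 0.35), but was called lower under TMM (-1.14). In LowDose, 1 of 18 passed: Cd209a, a dendritic cell lectin (3.24 ± 0.91, edgeR adjusted p = 0.0432), at 0.164, 0 and 0 CPM in PBS, 0.548, 0.629 and 0.374 in LowDose and 0.175, 1.005 and 1.65 in HighDose.

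Markers of cells that can carry these receptors were examined beside them, against 86.3% of all genes called higher in HighDose than in PBS. Of 12 monocyte markers, 8 were tested and 8 were higher than in PBS, also under TMM, and their sum was 3.58 to 5.40 CPM in PBS, 4.27 to 6.65 in LowDose and 188 to 330 in HighDose. Ly6c2, the classical monocyte marker, rose by 9.30 ± 0.39 and Ccr2, its chemokine receptor, by 5.49 ± 0.40. Both lay under the filter's 0.461 CPM in every PBS and LowDose library, so they had to differ. Of 12 dendritic cell markers, 7 were in the table and 5 tested, all higher (3 under TMM, with Wdfy4 below 0), with sums of 9.70 to 11.4, 9.61 to 11.4 and 49.7 to 70.8 CPM. A large part of these sums was the single gene Irf8, at 5.12 to 6.30, 4.97 to 5.30 and 31.2 to 38.7 CPM. The sums therefore do not stand for a level of dendritic cells. Xcr1, which marks the dendritic cells that carry Clec9a, was at 0 in every PBS library, at 0, 0.315 and 0.0534 CPM in LowDose and at 0.175, 0.144 and 0.693 in HighDose, so that the doses overlapped; its counts were too low to be tested.

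Of 12 microglia markers, 6 were tested, 3 higher and 3 lower (1 and 5 under TMM), and their sum was 119 to 151 CPM in PBS, 110 to 116 in LowDose and 148 to 160 in HighDose. Homeostatic P2ry12 fell by 0.97 ± 0.22, while Aif1 rose by 2.27 ± 0.28. Of 18 activated microglia markers, 8 were tested and 8 were higher (3 higher and 1 lower under TMM), with sums of 82.3 to 97.9, 81.6 to 114 and 250 to 364 CPM. Of 13 neutrophil markers, Csf3r alone was in the table (1.56 ± 0.26; -0.16 under TMM), and S100a8 and S100a9 were not analysed here. Of 11 border macrophage markers, 2 were in the table: Ms4a7 was higher (3.07 ± 0.48) and Cd163 lower (-1.59 ± 0.49).

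For the lymphocytes that carry receptors of the Clec2 ligands, 10 of 10 NK cell markers were higher (9 under TMM, beside 37.9% of all genes). Their sums were 0.436 to 0.872 CPM in PBS, 0.315 to 0.379 in LowDose and 40.4 to 69.8 in HighDose. With such sums, none could reach the filter's 0.461 CPM in 3 libraries outside HighDose, so they had to differ. In LowDose against PBS, 1 NK cell marker was called lower, beside 2.15% of all genes. Every LowDose sum lay below every PBS sum, and Klre1 was at 0 in PBS and in LowDose. Of 12 T cell markers, 10 were tested and 10 were higher, also under TMM, with sums of 0.726 to 1.89, 1.71 to 2.34 and 20.04 to 41.7 CPM, and Cd3d was at 0 in PBS. Of 7 B cell markers, 5 were tested and 4 were higher (sums of 0.763 to 1.43, 0.548 to 0.962 and 5.08 to 11.6 CPM). Low sums outside HighDose also limit these T and B cell counts. How many of those markers passed the filter only through HighDose was not counted. Of 8 platelet markers, Gp9 alone was in the table and was lower (-4.84 ± 0.998). Its level was low throughout, at 0.545 to 0.646 CPM in PBS and 0 to 0.0438 in HighDose. Of 8 endothelium markers, Ly6c1 alone was in the table and was higher (1.11 ± 0.22, but lower under TMM, at -0.58). The part of these cells in the Clec results was not tested.

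The 5 genes outside the group whose log2 CPM followed the mean Clec profile most closely over the 9 libraries were Nkg7, Ptprc, B2m, Mpeg1 and Ctss, each with a Pearson r of 0.998. The 9 points share the 3 groups, and 964 of 1292 candidate genes had an r over 0.9, so the likeness is not particular to these 5 genes.

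**Figure D5:**
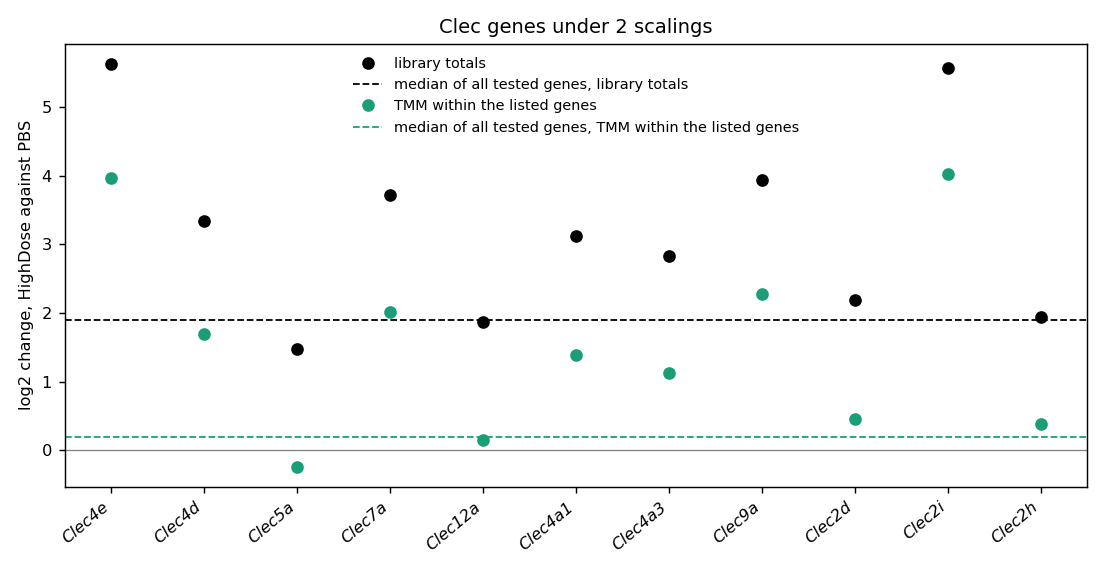
Log2 change of each Clec gene in HighDose against PBS with library totals (black) and with TMM within the listed genes (green), and the median of all 1583 genes under each (dashed lines, 1.90 and 0.19). Under TMM all 11 points are lower and Clec5a lies below 0, at -0.24, while Clec4e and Clec2i stay the highest pair.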

How the data were processed

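The authors deposited estimated counts per gene and FPKM values for 9 libraries on mouse build mm10; the submitters' processing notes name DESeq2 and edgeR without a role, and the aligner and counter were not given in these sources. Per library, 7.66% to 14.0% of the estimated counts as deposited were not whole; all were rounded. Library totals were recovered as the median of count, FPKM and transcript length over 23 to 68 single-transcript genes (FPKM of at least 5, 100 counts, 600 bases; GENCODE M21). After filterByExpr (minimum count 10), 1583 genes were tested with edgeR 4.0.16 (R 4.3.3) in 1 model of the 3 groups, Benjamini-Hochberg adjusted at 0.05. The SE was derived from the log2 change and F, and is approximate. The replicate numbers pair PBS with LowDose by the correlation of deviations from group means (0.14 to 0.25 for same numbers, -0.15 to 0.01 for others), which is a hint from the data, since the labels give no pairing. The pipeline was tested on simulated data. Python 3.11.15 made tables and figures.

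The members and lists were chosen with earlier results of these data known. Genes named were all Clec genes, the 2 of each list with the smallest p in HighDose against PBS, 18 set genes, and the 5 closest profiles (mean CPM of at least 1, log2 of CPM plus 0.5). Drd2, Adora2a, Klrb1b, Klre1, Cd3d, Cd209a, Ptgs2, Bcan, Ly75, Itgax, Xcr1, Egr2, Wdfy4 and the enterocyte genes were chosen after their values were seen. Not reported here are a few genes that this rule names. As alternatives, scaling was by TMM, DESeq2 1.42.0 size factors or the listed sum; others were no filter, a stricter filter, the DESeq2 Wald test, only the groups compared, a replicate block, adjustment over 55450 annotated genes and leaving out each library. Leaving out PBS replicate 1 and HighDose replicate 1 together was chosen after seeing the data.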

Additional observations from a re-analysis of the deposited data

How the results depend on the processing

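The 11 Clec genes called in HighDose against PBS, 0 in LowDose against PBS and 11 between the doses became 6, 0 and 6 under TMM, 6, 0 and 6 with DESeq2 size factors, and 6, 0 and 5 with the listed sum. These scalings take most listed genes as unchanged, and the median of all genes in HighDose against PBS was then 0.19, 0.22 and 0.22. Clec5a turned to -0.24, -0.21 and -0.21 against PBS and to -0.53, -0.48 and -0.65 against LowDose, the last called lower (edgeR adjusted p = 0.0187). Against PBS, Clec4d, Clec12a, Clec2d and Clec2h also lost their calls under all 3, and against LowDose Clec4d, Clec4a3, Clec9a and Clec2h did, with Clec2d under the listed sum. A stricter filter tested 8 of the 11 and called 8. Adjustment over all annotated genes left 10, without Clec2h (edgeR adjusted p = 0.136). Leaving out single libraries gave 10 to 11 calls in each HighDose comparison, 10 without HighDose replicate 1. In LowDose against PBS, uncalled values changed sign: Clec4d to 0.12 and Clec2d to 0.033 with the listed sum, and, leaving out single libraries, Clec4e -0.90 to 3.54, Clec4d -0.66 to 3.54 and Clec2h -0.83 to 1.44. With PBS replicate 1 and HighDose replicate 1 both left out, an alternative chosen after seeing the data, the calls were 11, 0 and 11, and Clec4e and Clec2h in LowDose turned to -0.18 and 1.44. With a replicate block the calls were 11, 0 and 11, and no Clec call changed. Correlations of HighDose libraries with same-numbered ones were -0.01 to 0.18, and with others -0.18 to 0.13. These ranges overlap, so they do not settle whether HighDose is paired. The cause of these shifts was not tested beyond the scaling's own construction. Counts of 0 to 7 per library limit Clec4e, Clec4d, Clec9a and Clec2i outside HighDose.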
